A study of Mus musculus with 24 samples.

Results

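The mouse PRDM family genes Prdm13, Prdm1, Prdm8, Prdm2, Prdm4, Prdm10, Prdm15, Prdm16 and Prdm6 were followed through neural retina and eye cup. These 9 genes were taken by their symbols from the 56748 genes of the deposited table, and all 9 were found. PRDM proteins carry a PR domain, a relative of the SET domain of histone methyltransferases, and in nearly all of them a run of zinc fingers that bind DNA. Several family members act as transcriptional repressors that recruit chromatin enzymes to their targets. In the developing retina, PRDM13 is known for the specification of amacrine cells, PRDM1 (Blimp1) for holding photoreceptor precursors to their fate against the bipolar fate, and PRDM8 for the maturation of rod bipolar cells. PRDM2, PRDM4, PRDM10 and PRDM15 are broadly expressed, PRDM16 is known for brown fat and for vascular and neural progenitor cells, and PRDM6 for smooth muscle.

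The mice carried 1 copy of a knock-in at the Rosa26 locus (PRDM13-OE, heterozygous, C57BL/6J background) or were wildtype littermates. In the knock-in, the ubiquitous EF-1α promoter drives the reverse tetracycline transactivator and the TRE3G promoter drives HA-tagged human PRDM13, so doxycycline (dox) switches on the human gene in principle in every cell type, while mouse Prdm13 stays at its own locus. Mice were untreated or drank 2 mg/ml dox with 10% sucrose for 72 hours from postnatal day 28. The study examined both sexes, and the sex of each sequenced mouse is not given here. No group of wildtype or PRDM13-OE mice received sucrose alone, so dox and sucrose cannot be told apart. Polyadenylated RNA was sequenced from the neural retina and from the remaining eye cup (RPE, choroid and sclera) of 12 mice, which gives 8 groups of 3 libraries, each from its own mouse. Retinal libraries held 16034800 to 21513207 counts and eye cup libraries 15825059 to 24908314.

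The dissections were not pure, and this bears on the family. Lens crystallin genes (12 listed) summed to 11208 and 4668 CPM (counts relative to the library size after TMM normalization) in wildtype dox retinas 1 and 2, against 3.56 to 876 in the other 10 retinas. The eye cups held 3374 to 49881 CPM of 10 rod genes, so rod transcripts were present in every one of them. They also held 937 to 26138 CPM of 5 surface epithelium genes (keratins and Trp63), which were at 0.584 to 6.71 CPM in the retinas. RPE and pigment genes (10 listed) summed to 7365 to 52483 CPM in the eye cups and 63.2 to 403 in the retinas, as the tissue labels say. All 10 rod and all 10 amacrine genes were above 3 counts in each of the 12 retinas. In bulk tissue, fewer cells of a type and less RNA per cell cannot be told apart.

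The members differ in their zinc fingers. In the GENCODE vM39 canonical coding sequences (GRCm39), a zinc finger pattern of 2 cysteines 2 to 4 residues apart, a loop of 12 residues and a closing pair 3 to 5 residues apart occurred 4 times in Prdm13 (706 residues), 5 times in Prdm1 (823 residues) and 3 times in Prdm8 (688 residues). The other members had 2 in Prdm6, 7 in Prdm4, 8 in Prdm2, 10 in Prdm16, 11 in Prdm10 and 16 in Prdm15. Prdm13 (ENSMUSG00000040478) lies on the minus strand at chr4:21677480-21685963, Prdm1 (ENSMUSG00000038151) on the minus strand at chr10:44313173-44404497 and Prdm8 (ENSMUSG00000035456) on the plus strand at chr5:98315057-98336850, all in GRCm39.

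The 200 bases upstream of the canonical starts of Prdm13, the mouse counterpart of the transgene, and Prdm1, the member with the largest change in retina below, are shown because they differ in composition and in motifs. Prdm13 is chr4:21685964-21686163 and Prdm1 is chr10:44334781-44334980 (GRCm39, both written 5′ to 3′ on the minus strand, ending at the base before the start). Neither window overlaps an annotated exon, but the Prdm1 window lies within the span of the gene given above. Capitals mark E-boxes (CANNTG, its own reverse complement), the class of site bound by bHLH factors such as PTF1A, and CRX/OTX sites (TAATCC on either strand).
Prdm13: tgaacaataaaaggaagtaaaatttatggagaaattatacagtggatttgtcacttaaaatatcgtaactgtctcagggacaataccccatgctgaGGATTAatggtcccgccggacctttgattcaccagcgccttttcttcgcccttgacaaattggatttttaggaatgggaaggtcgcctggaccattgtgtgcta
Prdm1: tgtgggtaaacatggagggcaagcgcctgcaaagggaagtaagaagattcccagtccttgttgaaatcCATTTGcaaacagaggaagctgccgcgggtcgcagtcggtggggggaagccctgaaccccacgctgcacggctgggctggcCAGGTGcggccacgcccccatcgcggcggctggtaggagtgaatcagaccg
The Prdm1 window had a GC content of 62.0% and held E-boxes at -132 to -127 and -51 to -46, counted back from the base before the start, and no CRX/OTX site. The Prdm13 window had a GC content of 42.0% and held no E-box and 1 CRX/OTX site at -104 to -99. The same window of Prdm8, not printed because exons of other Prdm8 transcripts cover parts of it, had 2 E-boxes and no CRX/OTX site. Among 21770 protein-coding promoters of the same length, 56.0% held an E-box and 5.48% a CRX/OTX site, so E-boxes are frequent in such windows.

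Per length, Prdm13 had the highest median of the members in neural retina and a lower one in eye cup. Over the 12 retinas, Prdm13 had a median of 11.0 FPKM (range 9.67 to 12.7), Prdm8 9.95 (7.10 to 11.4), Prdm2 9.25 (8.76 to 10.1) and Prdm4 8.91 (8.18 to 9.39). These 4 were close, with Prdm13 above Prdm8 in 9 of 12 retinas, Prdm8 above Prdm2 in 7 and Prdm2 above Prdm4 in 10. In wildtype retinas Prdm13 and Prdm8 overlapped. They stood at 10.3 to 11.0 and 9.66 to 11.4 FPKM with dox, and at 9.67 to 11.1 and 9.57 to 10.6 untreated. Below these 4 members a clear step followed, since Prdm4 was above Prdm1 in all 12 retinas. Prdm1 had a median of 2.07 FPKM, Prdm10 1.81, Prdm15 1.03 and Prdm16 0.693. Prdm1 was above Prdm10 in 9 of 12 retinas, and below it in the PRDM13-OE dox retinas (0.823 to 0.906 against 1.61 to 1.63 FPKM). Prdm6 had 0 counts in all 12 retinas, and 3 counts, the floor for a count of 0, would be 0.139 to 0.187 CPM per library.

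In the eye cup the order was different. Prdm2 (5.60 FPKM), Prdm4 (4.89) and Prdm16 (4.82) had the highest medians, and Prdm4 was above Prdm16 in 5 of 12 eye cups, so this pair was not separated. Prdm8 (3.19), Prdm1 (2.55) and Prdm13 (2.09) followed, each above the next in 7 of 12 eye cups, and Prdm10 (0.990), Prdm15 (0.670) and Prdm6 (0.289) were the lowest. These medians pool groups that differed. In untreated wildtype eye cups Prdm16 (6.74 to 9.40 FPKM) was above Prdm2 (4.30 to 5.67). In wildtype dox it was below Prdm2 (2.13 to 5.08 against 6.07 to 8.93). Prdm13 had 3.93 to 6.92 FPKM in wildtype dox and 0.209 to 1.93 in untreated wildtype. The spread between eye cups was wide for the members with a restricted expression. The highest eye cup was 20.4 times the lowest for Prdm8, 10.2 times for Prdm1 and 5.76 times for Prdm16 on the FPKM scale. The ratio was 27.2 for the low Prdm6, and Prdm13 ranged from 0 to 6.95 FPKM. For Prdm4, Prdm15 and Prdm2 the ratio was 1.66, 1.70 and 2.18.

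**Figure D1:**
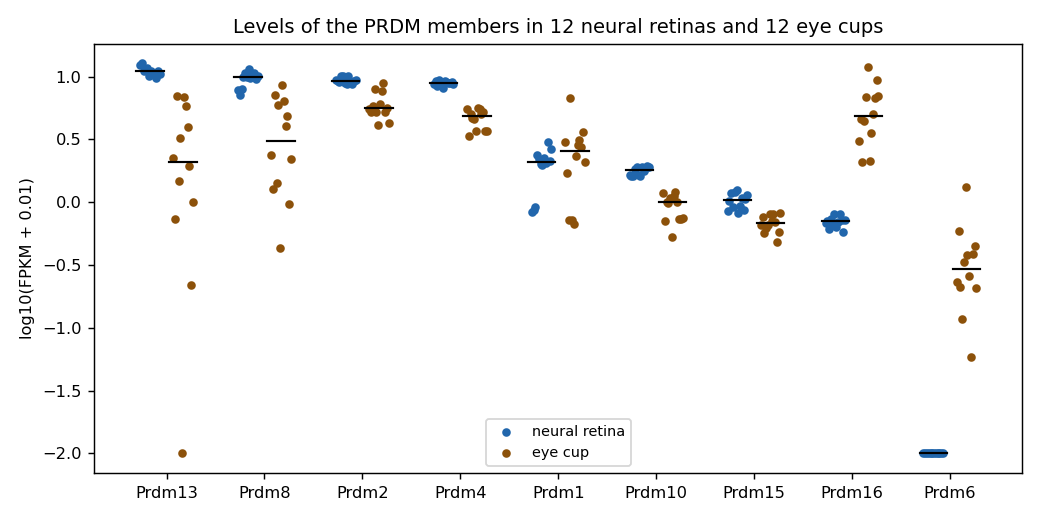
Levels of the 9 PRDM members, as log10(FPKM + 0.01), in 12 neural retinas (blue) and 12 eye cups (brown), with each point a library and each black line the median. Prdm6 lies at the bottom of the axis in retina, where all 12 libraries had 0 counts, and Prdm8, Prdm1 and Prdm13 spread more widely in eye cup than in retina.

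Tissue separated 8 of the 9 members by edgeR's quasi-likelihood test with Benjamini-Hochberg adjustment at an adjusted p under 0.05, in a comparison that called 68.5% of 26034 genes (34.2% higher and 34.2% lower in retina). Of these, 6 were higher in retina, led by Prdm13, whose log2-fold change (retina minus eye cup, averaged over the groups) was 2.23 ± 0.43 (SE, adjusted p = 0.000102). Prdm8 followed at 1.43 ± 0.34 (adjusted p = 0.00092), and the widely expressed Prdm10 (0.99), Prdm4 (0.96), Prdm2 (0.68) and Prdm15 (0.63) were higher in retina by smaller amounts. Prdm16 was lower in retina, with a log2-fold change of -2.87 ± 0.16 (adjusted p = 5.22e-12). Prdm6 had 257 counts over the 12 eye cups and none in retina, which makes it at least 80.4-fold higher in eye cup when 3 counts over all retinas are taken as the floor. Prdm1 did not pass (-0.46 ± 0.30, adjusted p = 0.185), and its levels in the tissues overlapped. Its direction was not settled, since it gave -0.17 with a block for mouse (adjusted p = 0.635) and 0.05 without untreated PRDM13-OE eye cup 1 (adjusted p = 0.835), the eye cup with the most Prdm1.

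With dox, mouse Prdm1 and Prdm8 were lower in PRDM13-OE retinas than in wildtype retinas, and mouse Prdm13 was slightly higher by a call that most fits without 1 library did not keep. These 3 of the 8 members tested passed an adjusted p of 0.05 (edgeR), in a comparison that called 12.5% of 20560 genes (5.01% higher and 7.51% lower). Only Prdm1 also went past a log2-fold change of 1, a cutoff that 2.41% of genes passed. Prdm6 was not tested because it had no counts. The median log2-fold change of the 8 members was -0.03, beside 0.01 for all genes tested.

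Prdm1, which encodes a repressor that holds photoreceptor precursors to their fate, had 5.06, 5.27 and 5.61 CPM in the PRDM13-OE dox retinas and 11.9, 13.4 and 12.1 CPM in the wildtype dox retinas. The groups did not overlap, and the values rest on 86 to 104 counts a library in PRDM13-OE and 204 to 250 in wildtype. The log2-fold change was -1.24 ± 0.12 (SE, n = 3 against 3, adjusted p = 4.58e-05), which is 2.36-fold lower. It was -1.27 and -1.18 without wildtype dox retina 1 or 2, the libraries with lens transcripts. In the untreated retinas Prdm1 stood at 14.2, 13.4 and 12.2 CPM in PRDM13-OE and at 18.3, 13.0 and 16.1 CPM in wildtype, all above the 3 PRDM13-OE dox retinas. Against untreated mice of the same genotype, dox-treated PRDM13-OE retinas had a log2-fold change of -1.32 ± 0.13 (adjusted p = 4.87e-05).

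Prdm8 had 42.0, 38.2 and 42.5 CPM in PRDM13-OE dox retinas against 59.7, 50.6 and 54.2 CPM in wildtype dox retinas. The log2-fold change was -0.43 ± 0.07 (adjusted p = 0.00304), or 1.34-fold lower, and it was -0.36 and -0.49 without wildtype dox retina 1 or 2. Untreated retinas lay between 51.5 and 56.5 CPM in both genotypes, again above every PRDM13-OE dox retina. The comparison with untreated PRDM13-OE gave -0.40 ± 0.07 (adjusted p = 0.00565).

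Mouse Prdm13 itself had 58.2, 60.2 and 53.0 CPM in PRDM13-OE dox retinas and 50.5, 49.2 and 47.1 CPM in wildtype dox retinas. The difference was small, with a log2-fold change of 0.22 ± 0.07 (adjusted p = 0.0482), and it just passed the threshold. It did not pass when all 12 retinas were fitted together (0.22, adjusted p = 0.0796), nor in 5 of the 6 fits that left out 1 library, where the adjusted p was 0.0649 to 0.199 (without PRDM13-OE dox 1 or 2, or any of the 3 wildtype dox retinas). Against untreated PRDM13-OE retinas (51.6, 54.7 and 47.7 CPM) the ranges overlapped and the test did not pass (0.15 ± 0.08, adjusted p = 0.378). The transgene encodes the human protein. Whether reads from its transcript were counted at mouse Prdm13 was not tested, and in PRDM13-OE mice such reads and those of the mouse gene cannot be told apart here.

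The other 5 members tested gave log2-fold changes between -0.09 and 0.15 in this comparison, with adjusted p of 0.555 to 0.95. Prdm2, known for a histone H3 methyltransferase activity, had 75.4 ± 1.1 CPM (SD, n = 3) in PRDM13-OE dox and 74.3 ± 5.3 in wildtype dox, and Prdm4 had 47.8 ± 2.1 and 47.9 ± 0.61. Their SEs of 0.06 each on the log2 scale bound these differences closely. Prdm10, Prdm15 and Prdm16 had SEs of 0.09, 0.14 and 0.14, and shifts of this size were not detectable, since Prdm13 at 0.22 with an SE of 0.07 only just passed.

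**Figure D2:**
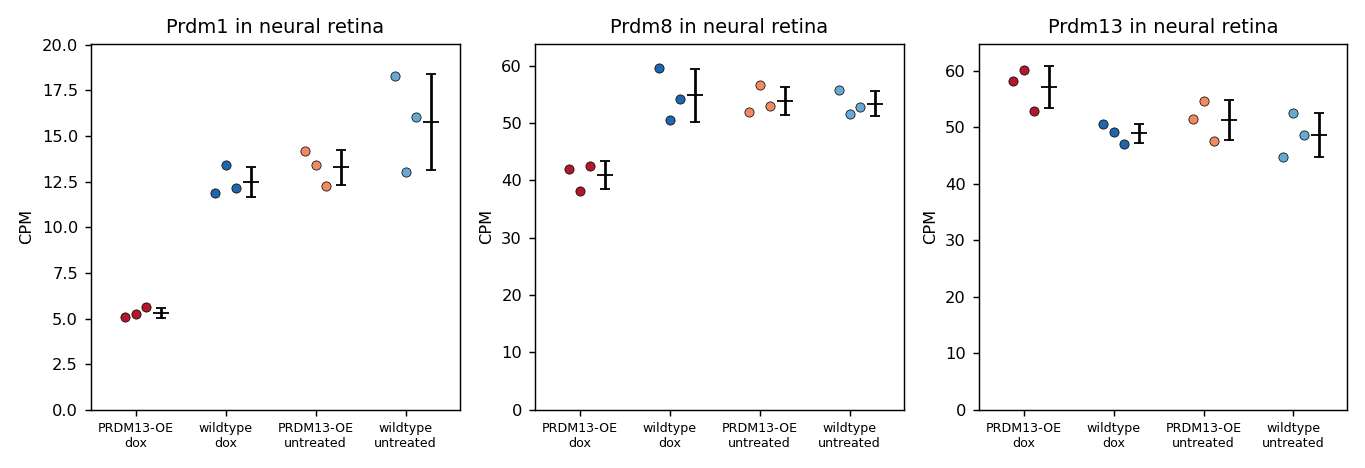
CPM of Prdm1, Prdm8 and Prdm13 in the 12 neural retinas by genotype and treatment, with each point a library and the black bar the mean ± SD of 3. The PRDM13-OE dox retinas are below all 9 others for Prdm1 (at most 5.61 CPM) and Prdm8 (at most 42.5 CPM), while for Prdm13 they overlap untreated PRDM13-OE.

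Prdm1 and Prdm8 passed the test in the comparisons that involve dox-treated PRDM13-OE retinas and in no other pairwise comparison of retinas. With untreated mice of both genotypes, none of the 8 members passed (edgeR; 0 at an unadjusted p under 0.05, 0 by DESeq2), in a comparison that called 0.00484% of 20668 genes, and Prdm1 and Prdm8 had log2-fold changes of -0.25 ± 0.14 and 0.02 ± 0.07. With dox in wildtype mice none passed either (edgeR; 1 at an unadjusted p under 0.05, 0 by DESeq2; 0.00485% of 20631 genes called), although Prdm1 was at 12.5 ± 0.82 CPM with dox and 15.8 ± 2.6 without (log2-fold change -0.34 ± 0.13, adjusted p = 0.451, and -0.22 without untreated wildtype 1). Within PRDM13-OE retinas, dox against no treatment called 2 of 8 members, both lower, where 5.00% of 20603 genes were called (2.96% lower) and 1.04% also went past a log2-fold change of 1, among them Prdm1. The interaction of genotype and dox, which asks whether dox acts differently in the genotypes, called the same pair (3.03% of 22538 genes). It was -0.98 ± 0.18 for Prdm1 (adjusted p = 0.00428) and -0.43 ± 0.10 for Prdm8 (adjusted p = 0.0266). For Prdm8 it was lost with library size scaling and without PRDM13-OE dox 2, wildtype dox 1, untreated PRDM13-OE 2 or untreated wildtype 2 or 3 (-0.42 to -0.36, adjusted p = 0.0636 to 0.0883). For Prdm13 the interaction was 0.15 ± 0.11 (adjusted p = 0.586). These comparisons share groups of retinas, so their values are not independent.

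**Figure D3:**
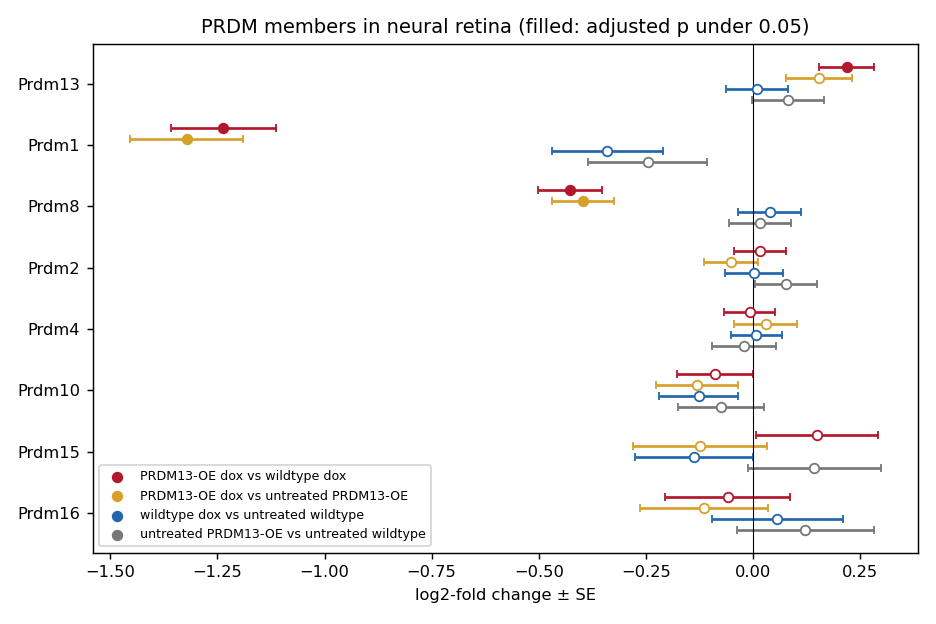
Log2-fold changes (± SE) of the 8 members with counts in neural retina, in the 4 pairwise comparisons, with filled points at an adjusted p under 0.05 (edgeR). Prdm1 and Prdm8 are lower in both comparisons that involve dox-treated PRDM13-OE retinas, and the 5 members from Prdm2 down stay between -0.14 and 0.15.

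Of the 13 marker lists, 5 were lower in the PRDM13-OE dox retinas than in all the others. The 8 endothelial genes summed to 214 to 244 CPM there, against 345 to 436 in the other 9 retinas, and the 9 cone genes to 742 to 816 against 1246 to 1495. The 10 rod genes summed to 56041 to 63085 CPM against 74696 to 81216, the 10 bipolar genes to 970 to 1048 against 1092 to 1243, and the 10 amacrine genes to 1608 to 1670 against 1706 to 1969. The other 8 lists overlapped, among them ganglion (1162 to 1225 against 1219 to 1443) and Muller glia (7225 to 7599 against 6394 to 7613). Within a library, Prdm1 gave 0.0889 to 0.0918 counts per 1000 rod counts in PRDM13-OE dox and 0.155 to 0.240 in the other 9 retinas, so Prdm1 was lower also relative to the rod genes. Relative to the 9 cone genes it gave 6.82 to 6.87 against 9.15 to 12.2. Prdm8 gave 36.8 to 43.9 counts per 1000 bipolar counts in PRDM13-OE dox, which overlapped the 40.7 to 51.8 of the others, and 23.7 to 26.4 per 1000 amacrine counts, below the 26.9 to 32.4 of the others. Prdm13 gave 33.0 to 37.5 counts per 1000 amacrine counts against 23.5 to 29.8. The part that the numbers of any of these cells had in the results was not tested.

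**Figure D4:**
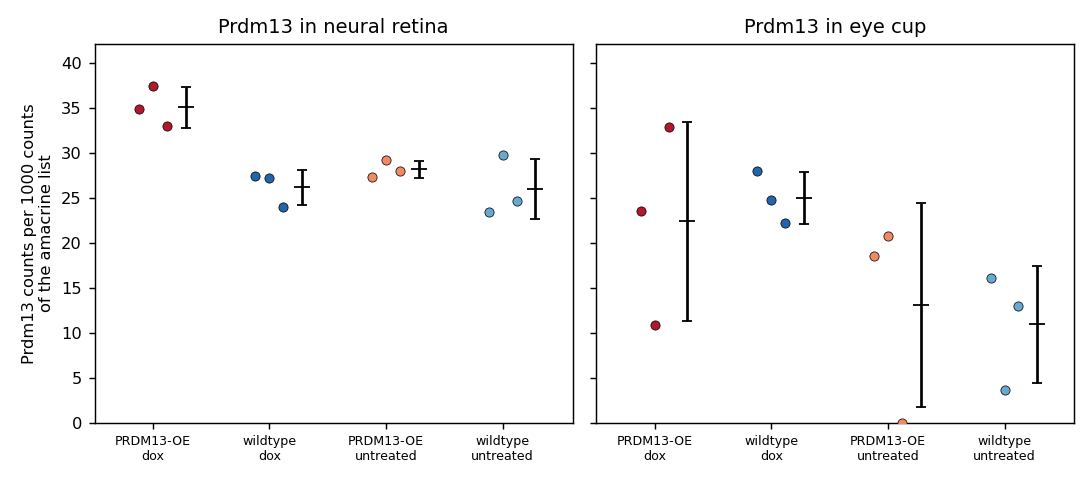
Counts of Prdm13 per 1000 counts of the 10 amacrine genes of the same library, in neural retina (left) and eye cup (right), with each point a library and the black bar the mean ± SD of 3. The 3 PRDM13-OE dox retinas (33.0 to 37.5) are above the other 9 (23.5 to 29.8), and the eye cups range from 0 to 32.9, with genotypes that overlap and with wildtype dox (at least 22.2) above untreated wildtype (at most 16.1).

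Genes whose retinal pattern was most like that of each changed member were found by the Pearson correlation of log2(CPM + 1) over the 12 retinas, among 14621 genes with at least 10 counts in each. The genes most like Prdm1 were Egflam (r = 0.993), which encodes pikachurin of the photoreceptor synapse, Rgs20 (0.987), the photoreceptor axoneme gene Rp1 (0.986), Hltf (0.984) and Podxl (0.984). Rp1 had 716 ± 43 CPM in PRDM13-OE dox and 1416 ± 65 in wildtype dox. The genes most like Prdm8 were Sel1l3 (0.974), Gsg1l2 (0.965), the synaptic organizer Elfn1 (0.961), the Wnt antagonist Nkd1 (0.960) and H2aw (0.956), and Elfn1 had 58.5 ± 1.5 against 122 ± 5.8 CPM. Prdm13 had weaker likenesses, with Akt1s1 (0.914), Pik3r2 (0.913), Inf2 (0.906), Gsk3a (0.893) and Pars2 (0.892). These r values describe libraries that share their groups of genotype and dox, and the genes named for Prdm1 and Prdm8 with values were low in the PRDM13-OE dox retinas alone (Rp1 had 1419 and 1571 CPM, and Elfn1 115 and 118, in untreated PRDM13-OE and wildtype).

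Several developmental partners of PRDM13 were at or near 0 counts in these retinas. Ptf1a, the bHLH activator upstream of Prdm13, had at most 2 counts in any retina, Tlx1 none, and Tlx3, a known target of PRDM13 repression, 1 count in 1 untreated PRDM13-OE retina. Of the 12 genes listed for the PRDM13 circuit and interneuron fate, 7 had enough counts to test and 1 fell, Lhx1, a LIM homeodomain factor of horizontal cells (7.95 ± 0.82 CPM in PRDM13-OE dox and 12.9 ± 0.84 in wildtype dox, log2-fold change -0.70 ± 0.12, adjusted p = 0.00275). Against untreated PRDM13-OE, Lhx1 gave -0.28 (adjusted p = 0.38). So 1 of 7 was called, near the share of 12.5% among all genes, and the median of this list was -0.20.

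Transcription factors around the photoreceptor or bipolar choice, where PRDM1 acts, moved in both directions, with 4 of 10 higher and 2 lower in PRDM13-OE dox against wildtype dox and a list median of -0.06, where 5.01% of all genes were called higher and 7.51% lower. Nr2e3, which keeps rods from cone-type expression, was lower at 187 ± 20 against 491 ± 71 CPM (log2-fold change -1.40 ± 0.10, adjusted p = 3.78e-06), and the rod determinant Nrl gave -0.50 (adjusted p = 2.28e-06). Rorb (0.39, adjusted p = 0.00765), Rax (0.35, adjusted p = 0.00589) and Thrb (0.31, adjusted p = 0.019) were the 3 with the smallest adjusted p among the higher ones, and Otx2, an activator of Prdm1, was the other (0.19, adjusted p = 0.0281). Of the 6 remaining family genes, 4 could be tested and 1 was lower, Mecom (1.38 ± 0.64 against 3.12 ± 0.51 CPM, log2-fold change -1.17 ± 0.31, adjusted p = 0.0313), a close relative of Prdm16, with a list median of -0.16. With 4 genes tested, 1 call beside 7.51% of all genes lower is no result about the list. Among 16 corepressors and chromatin partners, only Tle1, a Groucho-type corepressor, passed (-0.34 ± 0.08, adjusted p = 0.0126), and the list median was 0.05. This share is not above the 7.51% of all genes called lower. Ehmt2, Kdm1a, Hdac1, Hdac2 and Prmt5, known to be recruited by PRDM proteins, did not pass. Against untreated PRDM13-OE, dox-treated PRDM13-OE retinas had 0 of the 10 fate factors higher and 3 lower, with a list median of -0.13. In that comparison 2.96% of all genes were called lower. The interaction called 3 of the 10 higher and 2 lower, where 3.03% of all genes were called. None of the 4 family genes or 16 corepressors and partners tested was called in either.

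In the eye cup, no member passed in PRDM13-OE dox against wildtype dox (edgeR; 0 of 9 at an unadjusted p under 0.05, 0 by DESeq2), in a comparison that called 0.0184% of 21758 genes. Mouse Prdm13 had 8.96, 2.96 and 29.2 CPM in PRDM13-OE dox and 29.4, 24.5 and 16.0 CPM in wildtype dox (log2-fold change -0.71 ± 0.72, adjusted p = 0.736). Prdm8 had 10.7, 5.85 and 34.0 CPM against 41.4, 30.2 and 18.5 (-0.78 ± 0.63, adjusted p = 0.672), and Prdm1 15.6, 9.10 and 3.87 against 13.0, 15.6 and 16.6 (-0.61 ± 0.47, adjusted p = 0.658). For all of them the groups overlapped, and PRDM13-OE dox eye cup 3 stood apart from the other 2 of its group, also in its amacrine genes (889 CPM against 381 and 273) and rod genes (38853 CPM against 13376 and 6096). Without it, Prdm8 passed (-1.81, adjusted p = 0.0383), Prdm13 was at -1.91 (adjusted p = 0.0521) and Prdm1 at -0.25 (adjusted p = 0.61). Over all fits that left out 1 library, Prdm13 ranged from -1.91 to -0.26, Prdm8 from -1.81 to -0.39 and Prdm1 from -1.20 to -0.25, and the replicate block gave -1.28, -1.16 and -0.81 (adjusted p = 0.889 for each), so none of these sizes is settled.

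The remaining eye cup comparisons of genotype or dox called no member by edgeR either. Untreated PRDM13-OE against untreated wildtype called 0% of 21588 genes (404 genes and 0 members at an unadjusted p under 0.05, 3 genes and 0 members by DESeq2), and Prdm13 had 5.89, 12.3 and 0 CPM against 7.41, 0.859 and 4.02. PRDM13-OE dox against untreated PRDM13-OE called 0.0139% of 21604 genes (0 members, 1 at an unadjusted p under 0.05, 0 by DESeq2), and the 1 member was Prdm16 (-1.23 ± 0.43, adjusted p = 0.975, and -0.72 without untreated PRDM13-OE eye cup 3). The genotype by dox interaction called 0% of 23837 genes (1526 genes and 0 members at an unadjusted p under 0.05, 27 genes and 0 members by DESeq2).

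Wildtype dox against untreated wildtype was the eye cup comparison with the most members at an unadjusted p under 0.05, again with 0% of 21799 genes called by edgeR (6517 genes and 4 members at an unadjusted p under 0.05, 4039 genes and 4 members by DESeq2). Prdm13 was at 23.3 ± 6.8 CPM with dox and 4.10 ± 3.3 without (log2-fold change 2.43 ± 0.64, adjusted p = 0.0756), and Prdm16 at 32.4 ± 13 and 67.3 ± 15 (-1.07 ± 0.29, adjusted p = 0.0785). Prdm2 (0.62, adjusted p = 0.082) and Prdm10 (0.63, adjusted p = 0.088) were the other 2 called by DESeq2, and Prdm8 gave 1.28 ± 0.55 (adjusted p = 0.167). In the same libraries the rod genes summed to 26394 to 49881 CPM with dox and 3374 to 25092 without, the amacrine genes to 718 to 1050 and 236 to 459, and the RPE and pigment genes to 9512 to 20357 and 27661 to 44646, so the retinal share moved with the groups and cannot be told apart from dox. Prdm13 per 1000 amacrine counts was also higher, at 22.2 or above in each eye cup with dox and 3.64 to 16.1 without, and this ratio was not tested. Leaving out untreated wildtype 1 took Prdm13 to 3.19 (adjusted p = 0.0296) and Prdm8 to 2.03 (adjusted p = 0.0401), and leaving out wildtype dox 3 took Prdm16 to -1.38 (adjusted p = 0.047).

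Over the 12 eye cups, Prdm13 and Prdm8 rose with the marker lists of retinal neurons, as Prdm4 and Prdm10 did with some of them. Prdm16 rose with lists of RPE, fibroblast, vessel and Muller glia genes. The Muller glia genes had a median sum of 11131 CPM in eye cups and 7295 in retinas. In eye cup this list therefore cannot be read as retinal glia alone. All 117 relations of the 9 members with 13 marker lists were computed on log2(CPM + 1), with two-sided permutation tests of 100000 draws and Benjamini-Hochberg adjustment over the 117, a step chosen after the values were seen. Prdm13 passed by Pearson with 10 of the 13 lists, higher with the 5 neuronal ones and lower with the other 5. It rose with the ganglion list (r = 0.973, p = 1e-05, the smallest these permutations can give, adjusted p = 0.000292; rho = 0.972, p = 2e-05, adjusted p = 0.000468; 0.956 without the 2 eye cups farthest from the median of the list) and with the amacrine list (Pearson r = 0.964, p = 1e-05, adjusted p = 0.000292; Spearman rho = 0.986, p = 1e-05, adjusted p = 0.000468; 0.954 without the farthest 2). Prdm8 passed with 6 lists, the 5 neuronal ones among them, and rose alike with the ganglion list (r = 0.964, p = 1e-05, adjusted p = 0.000292; rho = 0.972, p = 1e-05, adjusted p = 0.000468; 0.942 without the farthest 2) and the amacrine list (r = 0.960, p = 1e-05, adjusted p = 0.000292; rho = 0.965, p = 2e-05, adjusted p = 0.000468; 0.938 without the farthest 2). With the rod list r was 0.900 for Prdm13 (permutation p = 7e-05, adjusted p = 0.00102; rho = 0.944, p = 2e-05, adjusted p = 0.000468; 0.920 without the farthest 2) and 0.898 for Prdm8 (permutation p = 0.0001, adjusted p = 0.0013; rho = 0.930, p = 5e-05, adjusted p = 0.000731; 0.949 without the farthest 2). The cone list gave adjusted p of 0.00603 and 0.00553 and the bipolar list 0.0172 and 0.0187 for r, but Prdm8 did not pass with the bipolar list by rho (0.685, permutation p = 0.0171, adjusted p = 0.0512). Both members passed with several neuronal lists, so these relations do not tie either to 1 cell type. Both lists and members come from the same libraries and scaling, and the relations were not tested within groups.

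Prdm16 passed with 7 of the 13 lists, 5 of them in the upward direction. It rose with the RPE and pigment list (r = 0.943, p = 4e-05, adjusted p = 0.000669; rho = 0.937, p = 3e-05, adjusted p = 0.000585; 0.939 without the farthest 2) and with the fibroblast list (r = 0.913, p = 2e-05, adjusted p = 0.000468; rho = 0.909, p = 9e-05, adjusted p = 0.00117; 0.847 without the farthest 2). It also rose with smooth muscle and pericyte genes (r = 0.868, permutation p = 0.00034, adjusted p = 0.00398; rho = 0.846, adjusted p = 0.00803), Muller glia genes (r = 0.715, permutation p = 0.00993, adjusted p = 0.0323; rho = 0.755, adjusted p = 0.0286) and endothelial genes (r = 0.705, permutation p = 0.00965, adjusted p = 0.0323; rho = 0.727, adjusted p = 0.0384), so it is not tied to 1 cell type either. Against the amacrine list its r was -0.738 (p = 0.00723, adjusted p = 0.0249; rho = -0.720, p = 0.0109, adjusted p = 0.0399), and -0.543 without the farthest 2. The ganglion list gave -0.742 (permutation p = 0.00679, adjusted p = 0.0244; rho = -0.699, adjusted p = 0.0478; -0.491 without the farthest 2), while the rod, cone and bipolar lists did not pass (adjusted p = 0.0501, 0.133 and 0.240). Untreated PRDM13-OE eye cup 3 was at the extreme, with 102 CPM of Prdm16, 4.16 CPM of Prdm6 and 0 counts of Prdm13, and with the most RPE and pigment (52483 CPM) and the least amacrine RNA (174 CPM) of the 12.

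Prdm1 passed with 1 of the 13 lists, surface epithelium (r = 0.783, p = 0.00297, adjusted p = 0.0151; rho = 0.741, p = 0.00779, adjusted p = 0.0338), and r dropped to 0.480 without the farthest 2, so this relation rests largely on untreated PRDM13-OE eye cups 2 and 3, which had 937 and 1065 CPM of the epithelial genes and 3.46 and 3.35 CPM of Prdm1. The highest Prdm1, 35.1 CPM in untreated PRDM13-OE eye cup 1, came with 17990 CPM of these genes. PRDM1 is known in the epidermis and its glands as well as in photoreceptors. Prdm4 passed with 7 lists and rose with rod (r = 0.827), cone (0.747), amacrine (0.834) and ganglion genes (0.785), at adjusted p of 0.0085 to 0.0243, though not with cone genes by rho (adjusted p = 0.0512). Its largest r was negative, with Muller glia genes (-0.929, adjusted p = 0.000669; rho = -0.930, adjusted p = 0.000731), and it also fell with smooth muscle and pericyte (-0.810, adjusted p = 0.0145) and RPE and pigment genes (-0.807, adjusted p = 0.013). Prdm10 passed with 6 and rose with amacrine (0.808) and ganglion genes (0.775), at adjusted p of 0.0121 and 0.016. Its largest r was also negative, with RPE and pigment genes (-0.846, adjusted p = 0.00603; rho = -0.818, adjusted p = 0.0122), and it fell with Muller glia (-0.804), fibroblast (-0.771) and smooth muscle and pericyte genes (-0.742), at adjusted p of 0.0121 to 0.0244. A rise with neuronal lists was therefore shared with broadly expressed members. Prdm6 passed with 2 lists by r, higher with skeletal muscle (0.747, adjusted p = 0.0172, and 0.528 without the farthest 2 eye cups) and lower with bipolar genes (-0.677, adjusted p = 0.0459, which did not pass by rho, adjusted p = 0.107), and Prdm2 and Prdm15 passed with none.

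**Figure D5:**
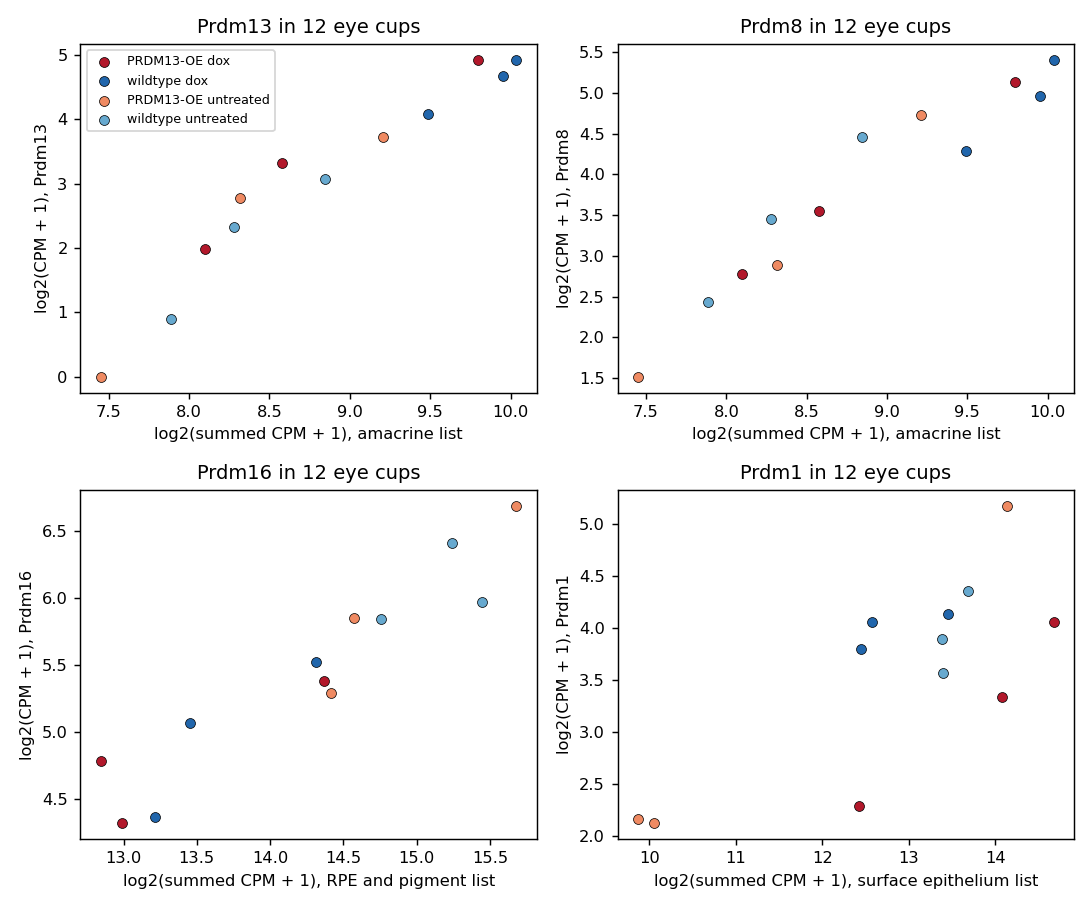
Levels of Prdm13, Prdm8, Prdm16 and Prdm1 against the summed level of a marker list in 12 eye cups, both as log2(CPM + 1), coloured by group. Prdm13 and Prdm8 climb with the amacrine list (r = 0.964 and 0.960), as they did with the ganglion list (r = 0.973 and 0.964), Prdm16 with the RPE and pigment list (r = 0.943), and Prdm1 more loosely with the surface epithelium list (r = 0.783).

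The genotype effect with dox was also compared between the tissues. No member differed by edgeR (0 of 9, 1 at an unadjusted p under 0.05, 0 by DESeq2), where 0% of 23678 genes were called (1698 at an unadjusted p under 0.05, 38 by DESeq2). The difference, retina minus eye cup, was -0.65 ± 0.51 for Prdm1 (adjusted p = 0.726), 0.35 ± 0.69 for Prdm8 (adjusted p = 0.895) and 0.92 ± 0.78 for Prdm13 (adjusted p = 0.735), so the larger fall of Prdm1 in retina was not shown to be particular to that tissue. Without PRDM13-OE dox eye cup 3, the difference was 2.18 for Prdm13 (adjusted p = 0.00924) and 1.44 for Prdm8 (adjusted p = 0.0304). Without PRDM13-OE dox eye cup 1 it was -0.06 for Prdm1, and without PRDM13-OE dox eye cup 2 it was 0.43 for Prdm13 and -0.07 for Prdm8.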

How the data were processed

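Polyadenylated RNA of 12 retinas and 12 eye cups had been sequenced. Per the labels, the authors' provider mapped reads to GRCm39, and the submitters' processing notes name CASAVA and HISAT2. The counting tool and annotation are not given in the sources used here, and directional and non-directional library kits are both described, so reads of a member and of overlapping antisense genes (191 counts over all libraries beside Prdm8, 402 beside Prdm10, 226 beside Prdm16) cannot be told apart. The authors deposited unnormalized read counts per gene, which were the input to every test, and FPKM values, used for levels between genes. Columns of the authors' 12 comparisons (mean normalized counts, fold changes and p-values) were not used.

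Counts were tested with edgeR 4.0.16 (R 4.3.3, TMM, quasi-likelihood, a minimum of 10 counts per gene in all libraries of a comparison together, Benjamini-Hochberg adjustment over all genes tested). Pairwise comparisons used their 6 libraries, interactions the 12 libraries involved, and the tissue contrast all 24. The alternatives were DESeq2 1.42.0, library size scaling, no filter, filterByExpr, robust fitting, a replicate block, all 12 libraries of a tissue, and leaving out each library. Marker relations and figures used python 3.11.15, numpy 2.4.6 and matplotlib 3.10.9. The fits were tested on simulated data with 200 genes changed by 2 on the log2 scale, and smaller changes were not simulated. For genotype with dox in retina, edgeR recovered 197 and called 20 unchanged genes, and DESeq2 recovered 196 and called 23. In eye cup, edgeR recovered 123 and called 10 unchanged genes, and DESeq2 recovered 177 and called 61.

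Totals per library of 15825059 to 24908314 limit the precision, and intervals from a floor of 3 counts cover counting error only. No 2 libraries were identical. The retina and eye cup of a mouse share its number in the labels. The correlation of their deviations from the group means was 0.000284 to 0.187 over the 12 mice, and the block for mouse changed no call.

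The text names all 9 members, the genes Ptf1a, Tlx1 and Tlx3 (another gene of this rule is not reported here), up to 3 genes a direction from each of 4 pathway lists by the smallest adjusted p in PRDM13-OE dox against wildtype dox retinas, the 5 genes most like Prdm13, Prdm1 and Prdm8, and some list genes beyond that rule. Members and lists were chosen with earlier results of these data known. Sequences come from GRCm39 with GENCODE vM39, where all 9 members were matched.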

Additional observations from a re-analysis of the deposited data

Results flagged for a closer look

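In neural retina, the effect of dox differed between the genotypes for 2 members by the interaction test. For Prdm1 dox changed the log2 level by -1.32 in PRDM13-OE and by -0.34 in wildtype, a difference of -0.98 (adjusted p = 0.00428, edgeR). For Prdm8 the changes were -0.40 and 0.04, a difference of -0.43 (adjusted p = 0.0266, edgeR). Groups held 3 libraries, which is too few to look for single outlying samples by this kind of test.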

How the results depend on the processing

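Of 188 recomputed counts of members, 175 were within 1.5 times their first value. In retina, Prdm1 and Prdm8 kept their calls in PRDM13-OE dox against wildtype dox in every alternative run (Prdm1 -1.28 to -1.15, Prdm8 -0.49 to -0.34). The count for the retinal interaction went from 2 to 1 with library size scaling and was 1 to 2 when 1 library was left out, since Prdm8 was lost. In eye cup, the count for wildtype dox against untreated wildtype went from 0 to 4 with DESeq2, 1 with library size scaling and 2 without a filter. Over all genes, DESeq2 called 4039 and library size scaling 1348 of 21799 there, against 0 in the first fit. The member count was 0 to 2 when 1 library was left out. Leaving out 1 library also gave 0 to 1 for PRDM13-OE dox against wildtype dox in eye cup and 0 to 2 for the tissue difference of the genotype effect. The cause was not tested. Of 1622 recomputed values of single genes, 12 lost and 13 gained significance, and no call reversed. Library size scaling moved the median gene by 0.18 on the log2 scale in the eye cup comparison of wildtype dox with untreated wildtype, by 0.11 in that of dox-treated with untreated PRDM13-OE, by 0.18 between tissues and by 0.16 for the tissue difference of the genotype effect, against 0.09 in the retina with dox. In the replicate block on mouse number, the count stayed at 3 in retina with dox (Prdm13 0.22, adjusted p = 0.0431, edgeR) and no other call changed. Between groups, equal numbers only name mice, and the deviations of libraries with the same number correlated at 0.0336 to 0.0532 in that comparison and at -0.549 to 0.652 over all pairwise ones. With dox, the SEs of the members were 0.20 to 0.76 on the log2 scale between genotypes in eye cup and 0.06 to 0.14 in retina, which limits what an eye cup comparison of 3 against 3 can show.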
